A study of Homo sapiens with 8 samples.

Results

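The kinesin family was taken by symbol, as every gene whose platform symbol starts with KIF followed by a digit or by C and a digit, and whose probe set is annotated to that gene alone. The rule used no measured value to choose genes. It found 45 of the 19775 genes of the arrays, covered by 91 probe sets. Of these, 41 encode motor proteins and 4 are antisense RNAs that carry a kinesin symbol (KIF1C-AS1, KIF9-AS1, KIF23-AS1 and KIF25-AS1). The brightest probe set over the 8 arrays stood for its gene. Of the 45 genes, 41 passed the filter on dim probe sets (38 motors and 3 antisense RNAs), and KIF2B, KIF24, KIF27 and KIF23-AS1 did not. The members nearest to the filter were KIF23-AS1 below it, with a mean log2 value of 4.25, and KIF26A above it, with 4.91, where the filter lay at 4.83.

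Kinesins are ATP-driven motors that walk along microtubules or take their ends apart. One set builds the mitotic spindle, moves chromosomes and completes cytokinesis, and its transcripts are known to peak when cells enter mitosis. Another set carries vesicles, organelles and protein complexes through the cell or along the cilium, and is used by dividing and resting cells alike.

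All arrays came from the human line HTETOP, made from HT1080 fibrosarcoma cells so that tetracyclines shut off the TOP2A gene for topoisomerase II alpha, so the vehicle groups carry the same regulated TOP2A. The 4 groups were doxycycline at 1 µg/ml for 24 h (1 array), its vehicle (1 array), dexrazoxane at 100 µM for 24 h (3 arrays) and its vehicle (3 arrays). Dexrazoxane inhibits the catalytic cycle of topoisomerase II. The design sets loss of TOP2A beside inhibition of its enzyme, and asks what either does to transcripts. RNA of 3 passages (15 to 17 in the doxycycline pair) was pooled for each array, and whether the numbered arrays stand for independent cultures is not in the labels. The p-values therefore measure only scatter among these arrays, or among the differences of same-numbered arrays where those are taken as pairs. Either scatter is possibly technical.

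Values are log2 expression from RMA, which makes arrays alike in distribution. Array medians were 4.81 and 4.82 in the doxycycline pair and 5.49 to 5.57 on the other arrays, so levels were not set against each other between the 2 treatments. TOP2A had a log2 value of 6.02 with doxycycline and 11.98 with its vehicle, a 62.1-fold lower level. Under dexrazoxane TOP2A was at 11.20, 10.92 and 10.52, against 12.41, 12.55 and 12.40 with vehicle. All 10 mesenchymal markers looked up lay above the array median on all 8 arrays, as did 3 of 6 epithelial, 1 of 4 leukocyte and 1 of 5 endothelial markers. CDH1 and EPCAM (epithelial), PTPRC (leukocyte) and CDH5 and VWF (endothelial) did not reach it on every array. Of the kinesin genes, 37 lay above the array median on all 8 arrays, 4 below it on all 8, and 4 on either side.

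RefSeq promoters (GRCh38.p14, 250 bases before to 50 after the gene start) were at hand for 36 of the 45 members; KIF5A, KIF13B, KIF19, KIF21B, KIF23-AS1, KIF26B, KIF27, KIFC2 and KIFC3 were not matched. They were searched on both strands for TTTGAA, a form of the CHR element. DREAM and B-MYB complexes are known to bind this element in genes of late cell cycle. The other words searched for were CCAAT, the word bound by NF-Y, and TTCCCGC, an E2F-type word. Other forms of the CHR element were not searched for, so a promoter without TTTGAA may still hold one. Adjoining words may share bases. The TTTGAA word was present in 9 of 14 kinesin genes with a role in cell division, in 1 of 19 other motors and in 0 of 3 antisense RNAs. Among the 11747 tested genes with a promoter it was present in 14.3%. CCAAT was present in 10 of the 14 and in 7 of the 19, against 42.5% of all these genes, and TTCCCGC in 0 of the 14 and 3 of the 19, against 11.7%. Counted per promoter of 300 bases, since some genes have several starts, the shares in the whole table were 15.2% for TTTGAA, 34.6% for CCAAT and 6.55% for TTCCCGC. Both TTTGAA and CCAAT were present in 8 of the 14 and in 1 of the 19, which was KIF5B. A match is a string of letters in this window and not a measured binding site.

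Stretches of 160 bases, 120 before to 40 after the start, are printed for 7 division kinesins and for KIF16B, the motor with the largest positive difference under dexrazoxane. Capitals mark TTTGAA and CCAAT, or TTCAAA and ATTGG where the word lies on the other strand.
KIF11: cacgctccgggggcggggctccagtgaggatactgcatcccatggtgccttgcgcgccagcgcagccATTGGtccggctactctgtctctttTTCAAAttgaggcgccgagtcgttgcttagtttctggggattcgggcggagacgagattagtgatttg
KIF15: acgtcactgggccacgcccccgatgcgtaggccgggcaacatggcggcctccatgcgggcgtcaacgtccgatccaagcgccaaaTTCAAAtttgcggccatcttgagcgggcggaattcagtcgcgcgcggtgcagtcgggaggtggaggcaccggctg
KIF18A: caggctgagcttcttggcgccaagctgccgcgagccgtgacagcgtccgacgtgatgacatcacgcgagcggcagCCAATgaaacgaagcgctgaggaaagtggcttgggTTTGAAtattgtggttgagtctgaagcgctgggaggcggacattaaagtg
KIF4A: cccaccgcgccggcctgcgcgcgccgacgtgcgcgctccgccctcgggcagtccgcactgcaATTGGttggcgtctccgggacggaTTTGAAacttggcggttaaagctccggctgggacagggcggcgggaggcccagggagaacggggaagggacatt
KIF14: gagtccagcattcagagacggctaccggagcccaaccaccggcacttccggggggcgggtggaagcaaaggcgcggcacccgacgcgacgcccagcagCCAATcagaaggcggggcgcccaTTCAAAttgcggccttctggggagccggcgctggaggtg
KIF23: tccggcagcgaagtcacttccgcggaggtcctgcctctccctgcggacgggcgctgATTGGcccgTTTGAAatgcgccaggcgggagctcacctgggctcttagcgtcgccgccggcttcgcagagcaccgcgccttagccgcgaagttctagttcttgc
KIF20A: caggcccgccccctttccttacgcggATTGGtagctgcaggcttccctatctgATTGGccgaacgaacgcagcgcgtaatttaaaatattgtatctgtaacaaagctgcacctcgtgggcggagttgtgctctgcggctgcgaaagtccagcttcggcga
KIF16B: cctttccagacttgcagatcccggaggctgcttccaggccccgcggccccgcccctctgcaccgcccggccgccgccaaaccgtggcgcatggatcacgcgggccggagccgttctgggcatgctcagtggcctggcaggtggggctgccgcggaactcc
These stretches are chr10:92593010-92593169 (+ strand) for KIF11, chr3:44761674-44761833 (+ strand) for KIF15, chr11:28108117-28108276 (- strand) for KIF18A, chrX:70289984-70290143 (+ strand) for KIF4A, chr1:200620712-200620871 (- strand) for KIF14, chr15:69414229-69414388 (+ strand) for KIF23, chr5:138178992-138179151 (+ strand) for KIF20A and chr20:16573409-16573568 (- strand) for KIF16B. In KIF11, KIF18A, KIF4A, KIF14 and KIF23 a CCAAT word lies upstream of a TTTGAA word. Of the marked words only, KIF15 holds TTTGAA without CCAAT, KIF20A holds 2 CCAAT words without TTTGAA, and KIF16B holds neither.

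**Figure D1:**
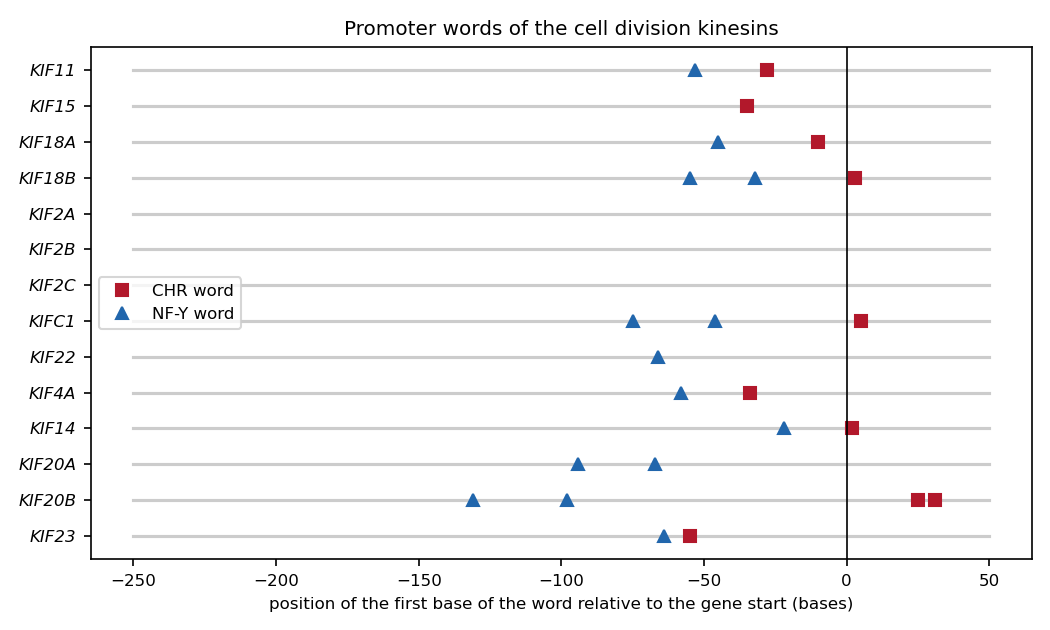
Positions of TTTGAA (a form of the CHR element, red squares) and CCAAT (NF-Y word, blue triangles) in promoters of the 14 division kinesins. Positions are in bases from the gene start (vertical line), over 250 bases before to 50 after it. Other forms of the CHR element were not searched for. KIF2A, KIF2B and KIF2C hold neither word; KIF22 has 2 annotated starts, and the promoter of 1 of them holds its CCAAT word.

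Under dexrazoxane the kinesins with a role in cell division were lower and most other motors were not. All 13 tested division kinesins had a mean difference below 0, against 45.4% of all genes tested. With same-numbered arrays taken as pairs, 9 of the 13 fell in limma, by 1.27-fold to 1.55-fold, and 0 rose. Across the family 9 of 41 tested members fell, where 2.44% of all 14731 genes tested fell, 2.42% rose and 4.87% were called in either direction. Of the 25 other motors and 3 antisense RNAs tested, 0 were called in either direction. The median difference on the log2 scale was -0.39 for the division kinesins, 0.06 for the other motors and 0.02 for all genes tested. The limma fit without pairs called 0 kinesin genes and 0 genes in all, with 3 kinesin genes (KIF15, KIF16B and KIF21B) and 5.19% of all genes at an unadjusted p under 0.05. For the 9 members its adjusted p was 0.952 or higher. The pairing rests on a check in these same data.

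Among the motors that build the spindle, KIF15 fell most. KIF15, which keeps spindle poles apart together with KIF11, was at 6.85, 5.84 and 6.13 on the dexrazoxane arrays, against 7.34, 6.62 and 6.77 on the vehicle arrays. The treated array of replicate 1 lay above the vehicle arrays of replicates 2 and 3, so the groups overlapped, while each treated array lay below the vehicle array of its own number. The difference was -0.64 ± 0.08 (SE, n = 3 pairs, limma paired adjusted p = 0.0115), or 1.55-fold lower. KIF11, the motor also called Eg5 that pushes the poles apart, had 8.811, 7.998 and 7.529 with dexrazoxane and 9.42, 8.29 and 8.23 with vehicle. It fell by 0.53 ± 0.09 (SE, limma paired adjusted p = 0.0244), with pair differences of -0.61, -0.29 and -0.70.

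The 2 kinesin-8 motors with a role in cell division, which limit microtubule length, both fell. KIF19, a tested kinesin-8 motor of the cilium, was not called (-0.06, limma paired adjusted p = 0.721). KIF18A, which dampens chromosome movements at the metaphase plate, stood at 7.97, 7.18 and 7.22 with dexrazoxane and at 8.35, 7.55 and 7.68 with vehicle. Its difference was -0.40 ± 0.07 (SE, limma paired adjusted p = 0.0253). KIF18B, which acts on astral microtubules, stood at 9.26, 8.90 and 8.85 with dexrazoxane and at 9.83, 9.26 and 9.21 with vehicle. The groups overlapped for both, through the first treated array. The KIF18B difference was -0.43 ± 0.08 (SE, limma paired adjusted p = 0.0263).

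Other spindle motors were lower without passing the test. KIFC1, a minus-end motor that bundles spindle microtubules, had 8.41, 7.70 and 7.82 with dexrazoxane and 8.76, 7.92 and 8.16 with vehicle (-0.30, limma paired adjusted p = 0.0593). KIF2C, the centromeric depolymerase also called MCAK, had 9.67, 9.12 and 8.91 with dexrazoxane and 9.96, 9.26 and 9.36 with vehicle (-0.29, limma paired adjusted p = 0.0877). Its second probe set also differed by -0.30. KIF2A, a related depolymerase of spindle poles that neurons use as well, was the division kinesin with the smallest difference. KIF2A stood at 9.43, 8.80 and 9.04 with dexrazoxane and at 9.37, 9.06 and 9.22 with vehicle (-0.12, limma paired adjusted p = 0.442), and was higher with dexrazoxane in pair 1. KIF2B, below the filter, differed by 0.08.

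Chromokinesins bind chromosome arms, and the groups overlapped for both of those tested. KIF22, also called Kid, which pushes arms away from the poles, was at 7.03, 6.60 and 6.37 with dexrazoxane and at 7.44, 6.80 and 6.80 with vehicle. It fell by 0.35 ± 0.08 (SE, limma paired adjusted p = 0.0498), just inside the bound, and its second probe set differed by -0.23. KIF4A, which sets the length of the central spindle, was at 8.92, 8.10 and 8.08 with dexrazoxane and at 9.20, 8.30 and 8.53 with vehicle (-0.31, limma paired adjusted p = 0.0662). KIF4B, a near-identical intronless copy of KIF4A, is not measured here by a probe set of its own, so its transcripts may add to the KIF4A signal.

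All 4 cytokinesis kinesins fell. KIF14, which brings citron kinase to the midbody, stood at 9.15, 8.54 and 8.46 with dexrazoxane and at 9.72, 8.98 and 8.92 with vehicle. The difference was -0.49 ± 0.07 (SE, limma paired adjusted p = 0.0163), and its second probe set differed by -0.47. KIF20A, which carries the chromosomal passenger complex to the central spindle, stood at 9.94, 9.13 and 9.06 with dexrazoxane and at 10.20, 9.52 and 9.62 with vehicle (-0.40 ± 0.08, SE, limma paired adjusted p = 0.0372). KIF23, the motor of the centralspindlin complex, came to 8.49, 7.67 and 7.41 with dexrazoxane and 9.01, 7.87 and 7.86 with vehicle (-0.39 ± 0.09, SE, limma paired adjusted p = 0.0430). KIF20B, which acts late in cytokinesis, came to 9.07, 8.10 and 8.05 with dexrazoxane and 9.34, 8.51 and 8.47 with vehicle (-0.37 ± 0.08, SE, limma paired adjusted p = 0.0373). A dimmer KIF20B probe set above the filter differed by -0.17, and another below it by -0.05. The second KIF23 probe set, below the filter, differed by 0.06. For these 4 genes the treated array of replicate 1 exceeded the vehicle arrays of replicates 2 and 3, and each treated array was below its own pair.

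**Figure D2:**
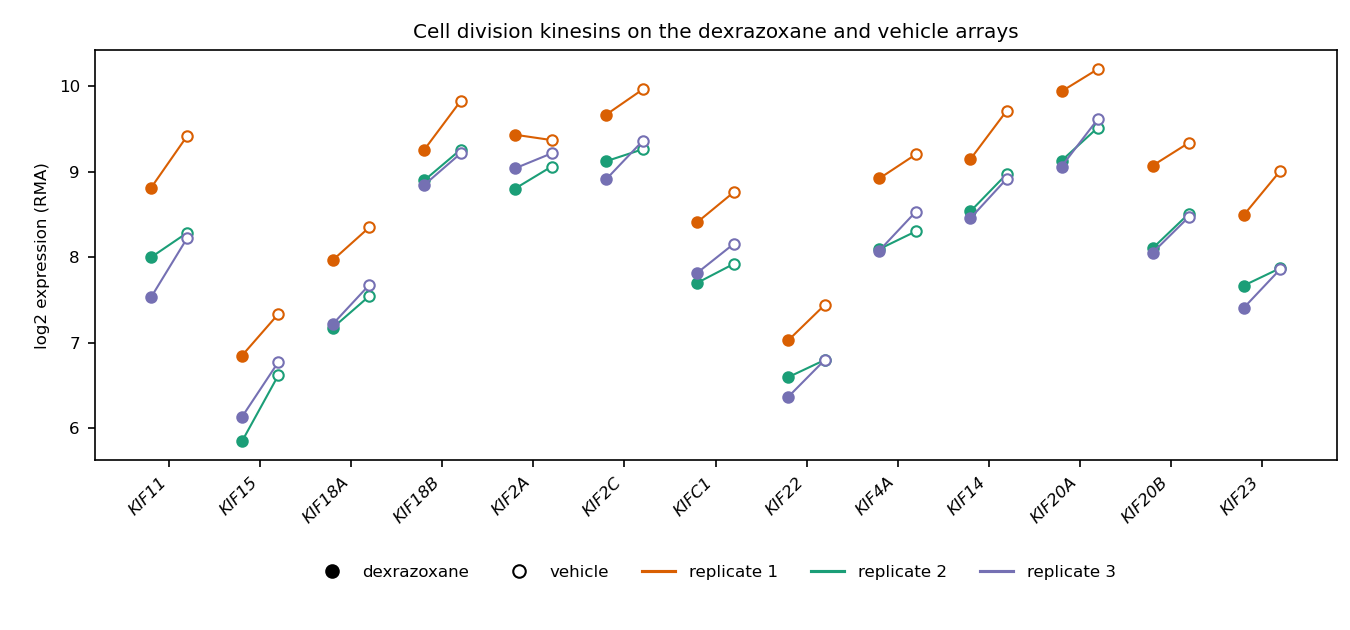
Log2 expression (RMA) of the 13 tested division kinesins on the 3 dexrazoxane arrays (filled, left of each gene) and 3 vehicle arrays (open, right); lines join arrays of the same replicate number. KIF11 runs from 7.53 to 8.81 with dexrazoxane and from 8.23 to 9.42 with vehicle, and the lines slope the same way for all genes but KIF2A.

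The replicate number moved with the level of these genes. On average over the 13 division kinesins, the dexrazoxane arrays lay 0.30 above, 0.41 below and 0.47 below the mean of the 6 arrays (deviations of 0.304, -0.414 and -0.472 for replicates 1, 2 and 3), and the vehicle arrays at 0.685, -0.086 and -0.017. The first vehicle array was the highest vehicle array for 13 of 13 genes, and the first treated array the highest treated array for 13 of 13. For 12 of 13 the first treated array was above vehicle arrays 2 and 3. The range over the 3 vehicle arrays exceeded the absolute difference for 13 of 13 genes. The 25 other motors showed no such offset on average, with mean deviations of 0.028, 0.033 and 0.044 on the dexrazoxane arrays and -0.054, -0.027 and -0.026 on the vehicle arrays. Single genes among them ran from -0.373 to 0.473 on the first dexrazoxane array and from -0.429 to 0.215 on the first vehicle array. The median SD over vehicle arrays was 0.432 for division kinesins and 0.142 for other motors. What sets the arrays of replicate 1 apart is not in the labels, and its part in the result was not tested. Of the 9 calls, 1 (KIF15) was kept without pair 1 (limma paired adjusted p from 0.0333 to 0.185), 9 without pair 2 (0.00341 to 0.0498) and 3 (KIF14, KIF15 and KIF18B) without pair 3 (0.00965 to 0.194). The 9 differences ran from -0.71 to -0.32 without pair 1, from -0.66 to -0.34 without pair 2 and from -0.63 to -0.31 without pair 3, against -0.64 to -0.35 over all pairs.

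**Figure D3:**
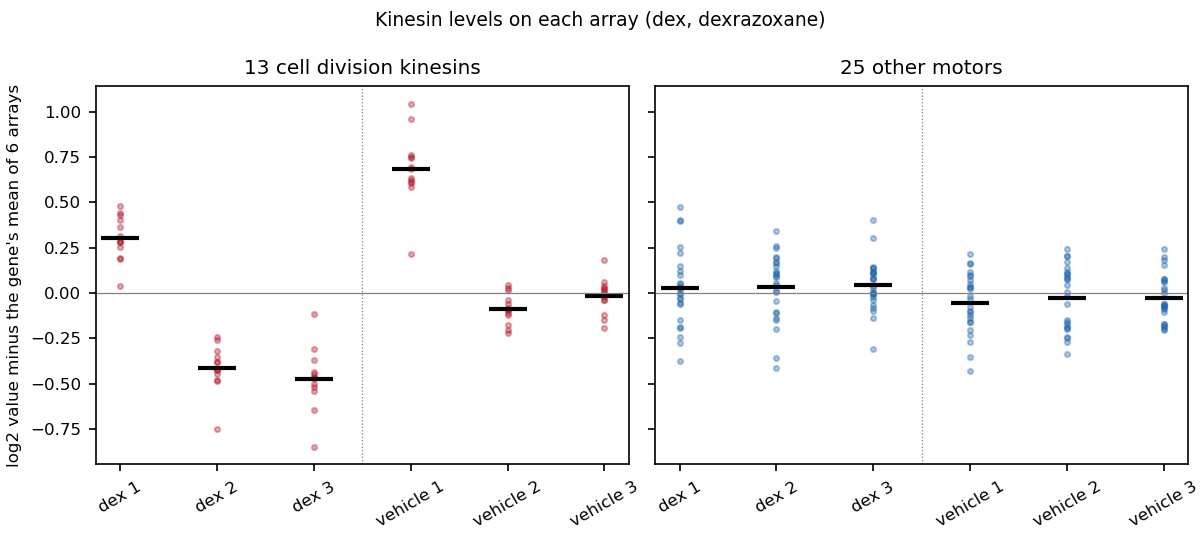
Log2 value minus the gene's mean of the 6 arrays, for the 13 tested division kinesins (left) and the 25 other tested motors (right), on each dexrazoxane (dex) and vehicle array. Dots are genes and bars their mean, at 0.304 and 0.685 for division kinesins on the first dexrazoxane and first vehicle array.

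None of the cilium, transport and atypical motors was called in the paired or the unpaired limma fit. Of 8 tested cilium motors 6 were above 0, with a median of 0.16, of 13 cargo motors 10, with a median of 0.06, and of 4 atypical motors 1, with a median of -0.03. Of all genes tested, 54.6% were above 0. Of the 25 other motors 11 were higher in 3 of 3 pairs, against 25.7% of all genes, and 3 were lower in 3 of 3, against 19.4%. KIF16B, which carries early endosomes, had the largest positive difference, at 7.24, 6.86 and 6.91 with dexrazoxane and 6.41, 6.61 and 6.58 with vehicle. All 3 treated arrays lay above all 3 vehicle arrays. The difference was 0.47 ± 0.11 (SE, limma paired adjusted p = 0.0599), with pair differences of 0.83, 0.25 and 0.32. A dimmer KIF16B probe set, below the filter, differed by -0.14.

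KIF3A and KIF3B are the motor subunits of kinesin-2, which with the adaptor KIFAP3 moves cargo along cilia. KIF3A was at 7.78, 8.07 and 7.84 with dexrazoxane and at 7.30, 7.87 and 7.52 with vehicle (0.33 ± 0.08, SE, limma paired adjusted p = 0.0593), and its second probe set differed by 0.49. KIF3B was at 9.13, 8.68 and 8.72 with dexrazoxane and at 8.82, 8.47 and 8.53 with vehicle (0.24, limma paired adjusted p = 0.106). Both were higher in each pair while their groups overlapped. KIFAP3 itself was at 9.48, 9.30 and 9.41 with dexrazoxane and at 9.17, 8.96 and 9.08 with vehicle, without overlap, and it rose (0.32 ± 0.07, SE, limma paired adjusted p = 0.0445, 0.941 unpaired). KIF3C, another kinesin-2 motor, differed by 0.18 (limma paired adjusted p = 0.232), and by -0.01 in its other probe set.

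KIF1C and KIF21B were the other tested motors whose groups did not overlap. KIF1C, a transport motor of the kinesin-3 family, was at 7.99, 7.99 and 7.98 with dexrazoxane and 7.72, 7.50 and 7.87 with vehicle (0.29, limma paired adjusted p = 0.105). A dimmer KIF1C probe set above the filter differed by 0.13, and in it the groups overlapped. KIF21B, which slows microtubule growth in neurons and lymphocytes, was lower, at 6.37, 6.30 and 6.10 with dexrazoxane and 6.46, 6.65 and 6.56 with vehicle (-0.30, limma paired adjusted p = 0.102). Treated arrays lay wholly above vehicle arrays for 6.53% of all genes tested and wholly below for 3.62%, against 2 and 1 of the 41 kinesin genes. KIFC3, a minus-end motor at cell junctions, differed by 0.17 (limma paired adjusted p = 0.227). KIF5B, the ubiquitous conventional kinesin heavy chain, had 11.32, 10.94 and 11.37 with dexrazoxane and 11.41, 11.23 and 11.49 with vehicle (-0.16, limma paired adjusted p = 0.264). Its brain relatives KIF5A and KIF5C differed by 0.13 and 0.02.

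Of the remaining cilium motors KIF17 differed by 0.16, KIF7, which acts in Hedgehog signalling, by 0.16, KIF9 by 0.04, KIF19 by -0.06 and KIF6 by -0.11. The dimmer KIF9 probe sets above the filter differed by -0.11, -0.08 and -0.06. By their brightest probe sets, the remaining cargo motors ran from -0.12 for KIF1A to 0.16 for KIF13B. Among dimmer probe sets above the filter, KIFC2 differed by 0.28, KIF1B by -0.12 to 0.21 and KIF13A by -0.19 to 0.08. The 4 atypical or little studied members KIF12, KIF25, KIF26A and KIF26B ran from -0.09 to 0.09. The tested antisense RNAs differed by -0.24 (KIF25-AS1), -0.13 (KIF9-AS1) and -0.03 (KIF1C-AS1). Below the filter KIF27, a cilium motor, differed by 0.24, KIF24, a centriolar depolymerase, by -0.04 and KIF23-AS1 by 0.03. Of the 19 tested members with several probe sets above the filter, 15 had the same sign in all of them, including 5 of 5 division kinesins.

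**Figure D4:**
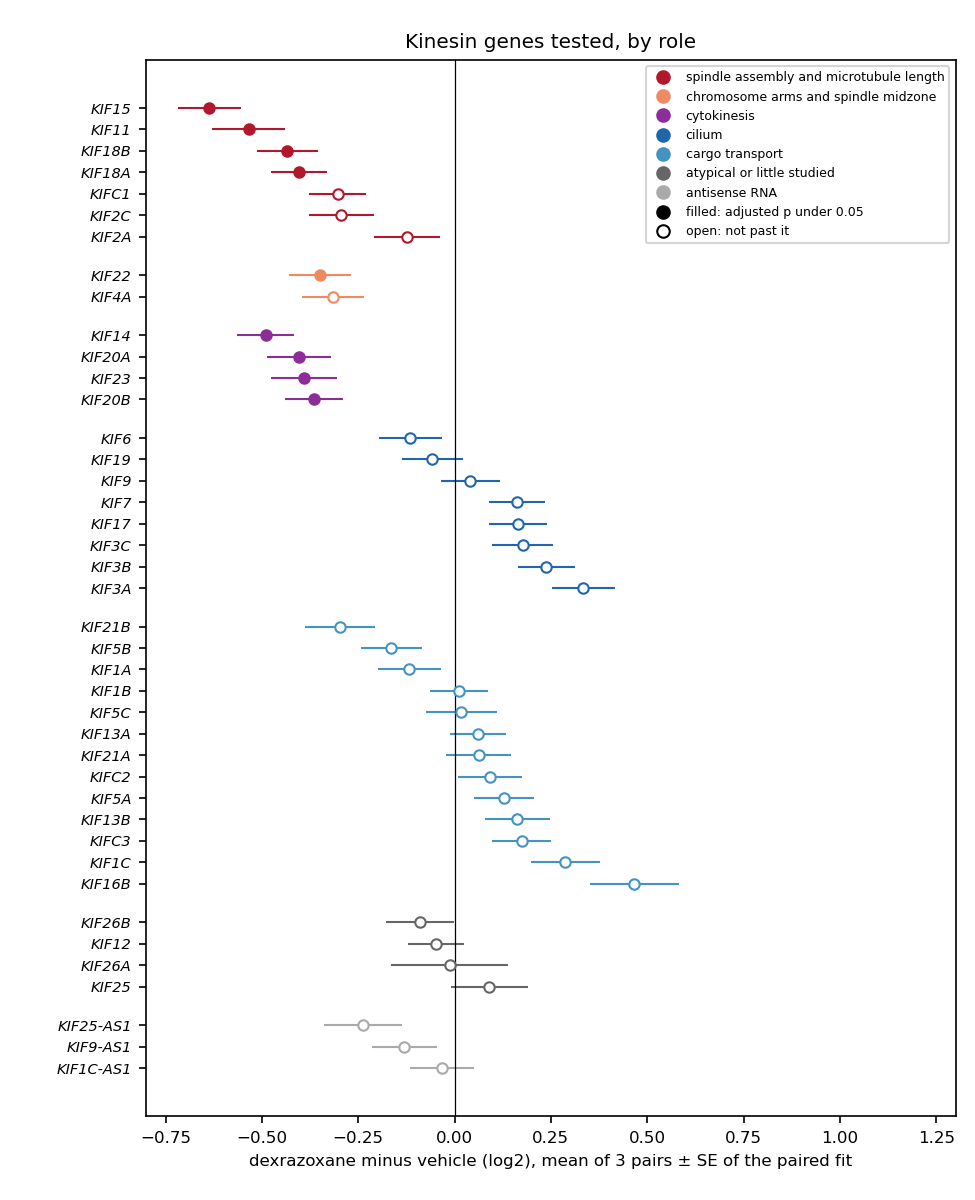
Dexrazoxane minus vehicle on the log2 scale for the 41 tested kinesin genes, grouped and coloured by role, as the mean of 3 pairs with the SE of the paired limma fit; filled points have an adjusted p under 0.05. The 9 filled points lie between -0.64 and -0.35 and all belong to the division roles.

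CENPE is a kinesin under another symbol, the kinetochore motor that slides chromosomes to the metaphase plate. CENPE was at 9.10, 7.79 and 7.78 with dexrazoxane and at 9.54, 8.39 and 8.76 with vehicle, and it fell by 0.67 ± 0.11 (SE, limma paired adjusted p = 0.0183, 1.00 unpaired). The groups overlapped, as for the division kinesins. STARD9, another kinesin outside the symbol rule, differed by 0.003. Of 22 tested genes for spindle and cytokinesis proteins that are not kinesins, 10 fell and 0 rose in the paired limma fit, where 2.44% of all genes tested fell. Their median was -0.36, and 21 were below 0, against 45.4% of all genes. They include the microtubule-binding HMMR (-0.60), the kinetochore subunit NDC80 (-0.52) and the kinase AURKA (-0.38). AURKB, the kinase of the passenger complex that KIF20A carries, differed by -0.41 without a call (limma paired adjusted p = 0.0851). The unpaired fit called 0 of the 22.

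Among other parts of the transport machinery 3 genes rose and 0 fell in the paired limma fit. Of 14 tested light chains, adaptors and cargo linkers KIFAP3 rose and 0 fell, with a median of 0.08, where 2.42% of all genes tested rose and 2.44% fell. BORCS5 and PLEKHM2, which link lysosomes to kinesin-1, differed by 0.20 each, and the light chain KLC2 by 0.13. Of 16 genes of dynein and dynactin, the motor that runs the opposite way and its activator, 0 were called, with a median of 0.13 and 13 above 0, against 54.6% of all genes tested. In this list 10 of 16 were higher in 3 of 3 pairs, against 25.7% of all genes, and 3 of 16 (DCTN2, DCTN3 and DCTN5) had all treated arrays above all vehicle arrays, against 6.53%. DCTN1, DCTN2, DCTN5 and DCTN3 differed by 0.27, 0.23, 0.20 and 0.16. Of 11 tested tubulins, the track itself, 2 rose and 0 fell. TUBB2A stood at 11.63, 11.56 and 11.80 with dexrazoxane and at 11.09, 10.91 and 11.20 with vehicle (0.60 ± 0.07, SE, limma paired adjusted p = 0.0105, 0.687 unpaired), and TUBA1A differed by 0.40 (limma paired adjusted p = 0.0312). TUBA4A and TUBB differed by 0.13 and -0.11. Tubulin genes have near-identical copies, so the member behind a probe set is uncertain.

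Among marker genes of cell types, KRT8, an epithelial keratin above the array median on all 8 arrays, rose by 0.51 (limma paired adjusted p = 0.0334), and the summed log2 level of 6 epithelial markers ran from 39.3 to 40.1 with dexrazoxane and from 38.4 to 39.0 with vehicle. Of the other 5 epithelial markers KRT18 differed by 0.26, CLDN4 by 0.18, EPCAM by 0.08, CDH1 by -0.04 and KRT19 by -0.04, the last 3 below the filter. The sums of the 10 mesenchymal markers were 100.8 to 102.1 with dexrazoxane and 101.2 to 101.6 with vehicle. Those of 4 leukocyte markers were 19.7 to 21.6 with dexrazoxane and 19.8 to 21.5 with vehicle, and those of 5 endothelial markers 26.5 to 27.7 with dexrazoxane and 27.1 to 27.2 with vehicle. The part of the epithelial markers in the kinesin result was not tested. In RNA from whole cultures, fewer cells in mitosis and less kinesin RNA per cell cannot be told apart.

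Silencing of TOP2A with doxycycline left the kinesins close to their vehicle values. With 1 array a group, these differences have no replicate check and no p. Of the 41 tested members 1 was past 1.2-fold in either direction, against 5.93% of all genes tested (2.5% higher and 3.43% lower). That member was KIF5A, a neuronal transport motor, dim in these cells, at 5.21 with doxycycline and 4.89 with vehicle (1.25-fold higher). Its other probe sets, below the filter, differed by -0.08 and 0.11.

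The division kinesins differed by -0.12 to 0.15 with doxycycline, with a median of -0.03 and 9 of 13 below 0, against 40.7% of all genes tested. The lowest was KIF14, at 8.96 with doxycycline and 9.08 with vehicle, followed by KIF11 at 8.71 with doxycycline and 8.83 with vehicle. KIF2C was on the other side, at 9.76 with doxycycline and 9.61 with vehicle, as was KIF4A at 8.75 with doxycycline and 8.64 with vehicle. Of the 9 genes called lower with dexrazoxane, 8 were below 0 with doxycycline, KIF18A (0.05) being the exception, and 0 of the 9 were past 1.2-fold. Of the 4 division kinesins not called, 1 was below 0. CENPE differed by -0.04. The difference between the treatments was not tested.

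Outside cell division, KIFC3 differed by 0.24, KIF3A by 0.15, KIF26B by -0.20, KIF7 by -0.22 and KIF19 by -0.16 with doxycycline. Dimmer probe sets above the filter differed by -0.26 for KIFC3, 0.02 for KIF3A and 0.19 for KIF26B. The 3 tested antisense RNAs were all lower, with differences of -0.24 for KIF25-AS1, -0.13 for KIF9-AS1 and -0.11 for KIF1C-AS1. KIF6, KIF16B and KIF26A had the same value on both arrays, as had 4.91% of all genes tested. The 2 comparisons share no arrays. Over the 41 members the doxycycline and dexrazoxane differences correlated at 0.332 (Pearson; Spearman 0.375), against 0.233 (Spearman 0.248) over all 14731 genes. Within the family the correlation was 0.554 (Spearman 0.747) over the 13 division kinesins and 0.459 (Spearman 0.538) over the other 28 members. Genes are not independent replicates, and those of 1 comparison come from the same arrays.

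**Figure D5:**
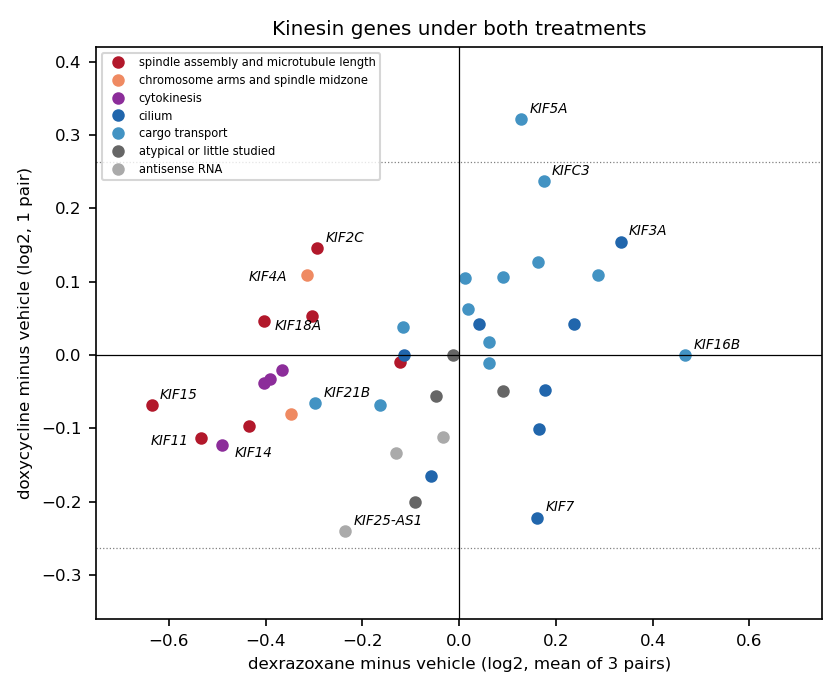
Doxycycline minus vehicle (vertical, 1 pair) against dexrazoxane minus vehicle (horizontal, mean of 3 pairs), both log2, for the 41 tested kinesin genes coloured by role; dotted lines mark 1.2-fold with doxycycline. The division kinesins lie left of 0 and between -0.12 and 0.15 on the vertical axis, and KIF5A is the point above the upper line.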

How the data were processed

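Biotinylated cRNA from HTETOP cells was hybridised to 8 Affymetrix human arrays. For each probe set the authors deposited a log2 value, and the submitters' processing notes name RMA as the method. Its version, and whether all arrays were processed together, are not given in the sources used here. Array medians were 4.81 and 4.82 in the doxycycline pair and 5.49 to 5.57 on the other arrays. The 8-array means used to choose probe sets and to filter join these unlike levels. Of 54675 probe sets 41097 carried 1 gene symbol in the platform annotation, and symbols were updated through a RefSeq table (GRCh38.p14). The brightest probe set stood for its gene, and 14731 genes with an 8-array mean at or above 4.83, the 40th percentile over probe sets, were tested. The number of arrays limits the precision.

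The dexrazoxane arrays were set against their vehicle arrays with limma (version 3.58.1, under R 4.3.3), using lmFit and eBayes. Tests were two-sided, with Benjamini-Hochberg adjustment over all genes tested and a bound of 0.05, and were run without a block and with the replicate number as a block. Across genes, what an array departs from its group mean correlated at 0.823, 0.574 and 0.716 for same-numbered arrays (numbers from the labels). For arrays of unlike number the values were -0.629 to 0.181, and the numbers were taken as pairs. Departures cancel out within a group, so the values for like and unlike numbers are not independent of each other. Calls and SEs in the text are from the paired fit, and the SEs use variances that eBayes moderates across genes. The fit first planned had no block. For the doxycycline pair differences were counted past 1.2-fold.

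Named genes were the tested division kinesins, other members called in either fit, the 8 others with the smallest unpaired p, the 6 with the largest doxycycline difference, 4 per partner list, TOP2A and CENPE. Further members are given to account for the family, chosen after their values were seen. Members, roles, lists and promoter words were chosen with earlier results of these data known. Alternatives covered the filter, probe set choice, normalization, variance model and arrays left out.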

Additional observations from a re-analysis of the deposited data

How the results depend on the processing

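Adding the replicate block changed the dexrazoxane calls from 0 to 357 higher and 360 lower genes, from 0 to 9 lower kinesin genes, and from 0 to 10 lower spindle partners, 1 lower kinesin under another symbol, 1 higher adaptor and 2 higher tubulins. Without the block 1 lower gene was called with probe sets without s or x suffix, with trended and robust variance, with each probe set tested separately, and 0 to 1 when 1 array was omitted; 0 kinesin genes were called in each of these settings. The following alternatives all have the block. Kinesin genes called lower numbered 5 with no filter, 11 with the 60th percentile filter, 7 with the mean of probe sets, 5 with probe sets without s or x suffix, 9 with repeated quantile normalization and with centred arrays, 12 with trended and robust variance and 1 with each probe set tested separately. Without s or x suffix 5 of the 9 members could be run and all 5 kept their calls; KIF18A, KIF20B, KIF22 and KIF23 had no such probe set above the filter. Higher kinesin genes numbered 2 with the 60th percentile filter (KIF16B and KIF3A), 1 with the mean of probe sets (KIF3A) and 4 with trended and robust variance (KIF16B, KIF1C, KIF3A and KIF3B). In the same order of settings, all genes called were 195 higher and 230 lower, 553 and 512, 348 and 339, 186 and 232, 336 and 365, 366 and 371, 992 and 852, and 62 and 71. Spindle partners called lower were 6, 12, 10, 4, 10, 11, 15 and 2. Tubulins called higher were 1 to 2, adaptors 0 to 1, and CENPE was called except with each probe set tested separately; 3 dynein genes were called with trended and robust variance. Omitting pair 1, 2 or 3 left 42, 416 or 211 genes higher and 56, 414 or 200 lower, 0 to 2 higher and 1 to 12 lower kinesin genes, 2 to 11 spindle partners, 1 to 2 tubulins, 0 to 1 dynein genes and 0 adaptors, with CENPE called each time. With no filter KIF20A, KIF20B, KIF22 and KIF23 lost their calls, and with the mean of probe sets KIF20B (-0.19), KIF22 (-0.29) and KIF23 (-0.17) did, the first and last through dim probe sets. KIF3C turned to -0.00857 with probe sets without s or x suffix, and KIF2A to 0.0213 without the second treated array. Filters alter how many genes share the adjustment. For shifts of another kind the cause was not tested. In the doxycycline pair 0 members were past 1.2-fold higher under the 60th percentile filter, and likewise when probe sets were averaged; 4 higher and 4 lower were past 1.1-fold and 0 past 1.5-fold.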
